A study of Mus musculus with 2 samples.

Results

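The accessible chromatin of mouse cerebral cortex was examined at 9 genes for RNA-binding proteins that regulate splicing in neurons. These were Rbfox1, Rbfox2, Rbfox3, Nova1, Nova2, Elavl2, Elavl3, Elavl4 and Ptbp2. They were set beside Ptbp1, the paralogue of Ptbp2 that is known from cells that are not neurons. The genes were chosen by name, as 10 of the 21938 protein-coding genes of the GENCODE M21 annotation. Each was taken as its gene body plus 20 kb on either side in mm10, and each annotated transcription start was read separately. These regions held 293 of 150726 DNase I peaks in replicate 1 and 300 of 155536 in replicate 2. The assay, DNase-seq, maps where the enzyme DNase I cuts chromatin, which it does where nucleosomes leave DNA free. The tissue was left cerebral cortex of male B6CASTF1/J mice, the first-generation hybrid of C57BL/6J and CAST/EiJ, at 14 days of age. There was 1 group of 2 biological replicates. The label of replicate 1 names 3 males and that of replicate 2 names 1 male. Both labels carry the same donor identifier, so the spread between the libraries may not be a spread between animals. Sequence of the hybrid was reported on the mm10 reference, and alleles were not separated.

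Splicing regulators bind short RNA motifs in and beside exons and so decide which exons stay in the mature transcript. The Rbfox, Nova and neuronal Elavl families are known for the exon choices of differentiated neurons, many of them in transcripts for synapses and the cytoskeleton. Ptbp1 is known to repress neuronal exons in other cells, and its paralogue Ptbp2 takes over as precursors become neurons. An accessible site marks DNA open to proteins and is not a measure of transcription.

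Peak signal is the authors' height of a peak, scaled by them to sequencing depth, and means are given with the SD of the 2 libraries (n = 2). A footprint is a short stretch inside open DNA that the authors called as protected from cleavage. The number of reads behind a peak is unknown. The median peak was 180 bp wide in both libraries, and there were 380111 footprints in replicate 1 and 379156 in replicate 2. At starts of marker genes, peaks of both libraries stood at 6 of 6 neuron genes, 4 of 4 astrocyte genes, 1 of 3 oligodendrocyte genes, 3 of 4 microglia genes and 2 of 4 endothelium genes. None of the 3 liver or 3 erythroid genes had one in both libraries. The tissue is a mixture, so a site open in few cells and a site weakly open in many cannot be told apart. With 1 group there is no test between conditions. Genes within a library are not replicates either, so differences between genes are set beside the spread of the libraries and carry no p-value.

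The 6 sites shown here carry most of the contrasts described below. The first 4 are the strongest start peaks of Elavl2, Nova2, Nova1 and Elavl3, which differ in height and in what their footprints cover, and the other 2 are intronic sites that stand above every start of their genes. They are written on the strand of the gene, 5′ to 3′, from RefSeq's GRCm38.p6 sequence over the stretch that peaks of both libraries share, with annotated exon sequence left out. Capitals mark bases inside footprints of both libraries. In the order given, they lie at chr4:91376497-91376660 (minus strand), chr7:18925261-18925460 (plus strand), chr12:46819421-46819660 (minus strand), chr9:22052024-22052180 (minus strand), chr16:6018761-6018940 (plus strand) and chr11:118738981-118739180 (minus strand).
Elavl2 start: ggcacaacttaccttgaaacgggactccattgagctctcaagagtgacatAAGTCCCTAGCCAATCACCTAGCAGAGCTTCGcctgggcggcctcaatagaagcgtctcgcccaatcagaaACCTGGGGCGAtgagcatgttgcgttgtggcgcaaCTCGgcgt
Nova2 start: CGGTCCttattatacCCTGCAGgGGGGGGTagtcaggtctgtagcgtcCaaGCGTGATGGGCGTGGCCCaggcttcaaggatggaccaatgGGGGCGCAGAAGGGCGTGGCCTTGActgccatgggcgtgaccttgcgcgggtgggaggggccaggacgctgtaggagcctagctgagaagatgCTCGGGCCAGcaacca
Nova1 start: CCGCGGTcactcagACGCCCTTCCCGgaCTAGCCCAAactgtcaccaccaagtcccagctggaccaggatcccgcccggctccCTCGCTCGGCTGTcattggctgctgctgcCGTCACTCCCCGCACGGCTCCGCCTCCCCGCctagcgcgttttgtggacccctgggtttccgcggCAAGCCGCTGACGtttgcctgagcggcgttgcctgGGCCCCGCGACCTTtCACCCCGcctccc
Elavl3 start: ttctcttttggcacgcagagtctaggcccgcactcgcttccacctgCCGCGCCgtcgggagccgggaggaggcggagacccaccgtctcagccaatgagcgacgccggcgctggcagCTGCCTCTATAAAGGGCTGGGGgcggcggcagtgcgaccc
Rbfox1 intron: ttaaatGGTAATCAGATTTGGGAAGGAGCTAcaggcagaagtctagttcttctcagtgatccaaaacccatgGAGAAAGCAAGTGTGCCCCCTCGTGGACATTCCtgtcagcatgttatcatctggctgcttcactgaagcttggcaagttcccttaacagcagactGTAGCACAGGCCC
Rbfox3 intron: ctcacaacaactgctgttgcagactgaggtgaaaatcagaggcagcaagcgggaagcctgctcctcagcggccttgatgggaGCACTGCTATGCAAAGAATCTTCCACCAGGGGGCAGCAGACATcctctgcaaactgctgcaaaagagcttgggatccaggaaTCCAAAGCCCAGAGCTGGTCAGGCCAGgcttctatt

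In both libraries all 10 genes had a peak at an annotated start (within 1000 bp), as did 66.7% of protein-coding genes. Their signals differed widely. The median strongest start of the 9 neuronal genes was 3.26 in replicate 1 and 3.61 in replicate 2, against 10.8 and 14.3 at Ptbp1. That is a ratio of 0.302 in replicate 1 and 0.253 in replicate 2, and no neuronal gene reached Ptbp1 in the same library. The median over protein-coding genes with a start peak in the same library was 3.47 in replicate 1 and 3.91 in replicate 2. Percentiles of start signal refer to the mean of the libraries over genes open in both, whose median was 3.84. The neuronal genes as a set thus lay near the typical open gene, and Ptbp1 lay far above it at percentile 96.7.

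**Figure D1:**
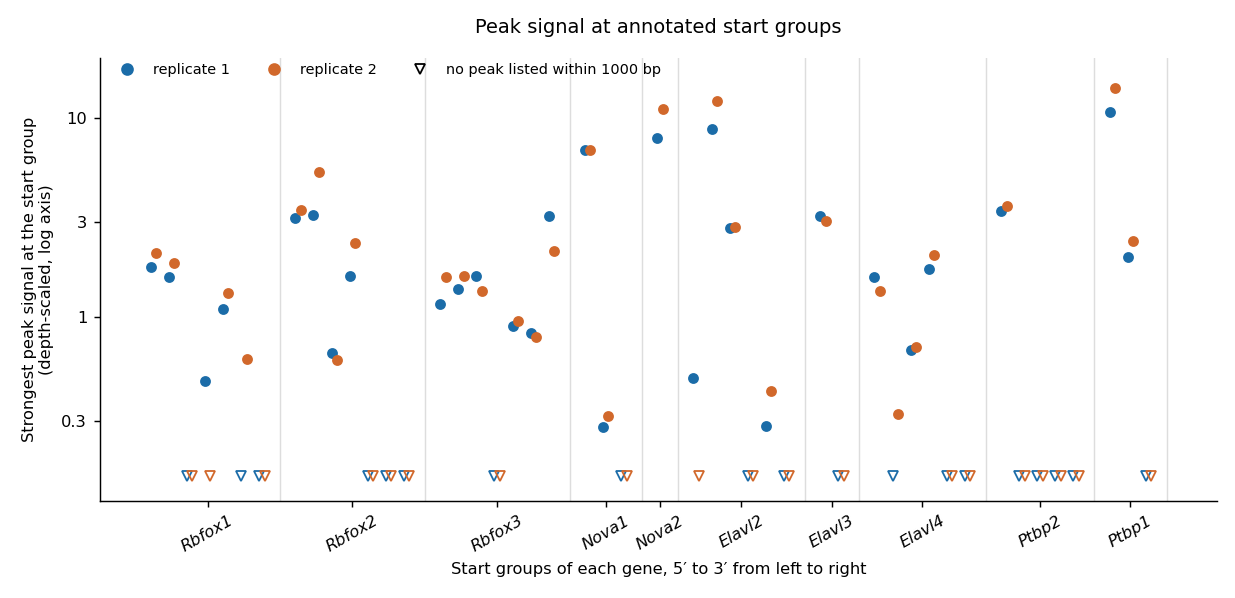
Strongest peak signal (depth-scaled, log axis) at each start group of the 9 neuronal genes and, at the right, of Ptbp1. A start group is a set of starts of 1 gene chained within 1000 bp. Each point is 1 library, and open triangles mark groups with no listed peak within 1000 bp. Elavl2, Nova2 and Nova1 stand above the other neuronal genes, and Ptbp1 has the highest value in each library, 10.8 and 14.3.

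Elavl2 and the Nova genes were the most open of the neuronal set. Elavl2 (HuB, chr4:91250763-91400785), of a family that binds AU-rich RNA, had a signal of 8.80 in replicate 1 and 12.2 in replicate 2 (10.5 ± 2.39, percentile 92.4). Nova2 (chr7:18925888-18965319), a KH-domain protein that recognises clusters of short motifs, had 7.97 and 11.1 (9.56 ± 2.24, percentile 89.2). Its paralogue Nova1 (chr12:46694517-46818929) had 6.97 and 6.90 (6.94 ± 0.0439, percentile 75.2). The order Ptbp1, Elavl2, Nova2, Nova1 was the same in both libraries. The ranges of Ptbp1, Elavl2 and Nova2 overlapped between neighbours, while both Nova1 values lay below all of theirs and above all others.

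Rbfox2, Ptbp2 and Elavl3 lay near the typical open gene. Rbfox2 (chr15:77078990-77307004), the Rbfox gene that many tissues use, had 3.26 in replicate 1 and 5.38 in replicate 2 (4.32 ± 1.50, percentile 54.1). Ptbp2 (chr3:119718742-119784466) had 3.43 and 3.61 (3.52 ± 0.125, percentile 46.9). Elavl3 (HuC, chr9:22015005-22052023), an early neuronal protein, had 3.23 and 3.04 (3.14 ± 0.134, percentile 42.8). The libraries of Rbfox2 and Ptbp2 overlapped, so their order is not resolved. Ptbp2 reached 0.318 and 0.253 of the signal of its paralogue Ptbp1 (chr10:79854427-79864771), which had 12.5 ± 2.47.

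Rbfox3, Rbfox1 and Elavl4 had the lowest mean start signals. Rbfox3 (chr11:118489762-118911597), whose protein is the nuclear marker NeuN, had 3.23 in replicate 1 and 2.16 in replicate 2 (2.70 ± 0.763, percentile 37.9), a range that reaches both values of Elavl3, so the order of these 2 genes is not resolved. Rbfox1 (chr16:5885355-7411526), the longest of the 10 at 1526 kb, had 1.79 and 2.11 (1.95 ± 0.221, percentile 29.1). Elavl4 (HuD, chr4:110203722-110351909) had 1.75 and 2.06 (1.90 ± 0.216, percentile 28.4). The libraries of Rbfox1 and Elavl4 overlapped, and both genes lay below Rbfox3 in every library. Within the Elavl family, Elavl2 was 5.02 times as high as Elavl4 in replicate 1 and 5.92 times in replicate 2, so close paralogues covered most of the neuronal range.

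The annotated starts were read one by one after chaining neighbours within 1000 bp. Of 44 start groups of the neuronal genes, 24 (54.5%) were open in both libraries, 4 were open in 1 of them and 16 had no listed peak. The share over start groups of all protein-coding genes was 39.0%. At the first group of each gene the count was 8 of 9, Nova2 with its single group included, against 69.7% of first groups in genes with 2 or more, and at groups farther in it was 16 of 35 (45.7%). The other 19 of these inner groups lacked a peak in 1 or both libraries, as did 80.0% of inner groups in all such genes. Groups with a protein-coding transcript were open in 22 of 33 cases, against 50.8% of such groups in all protein-coding genes, and those without one in 2 of 11, against 15.3%. Ptbp1 had a peak in both libraries at 2 of its 3 groups.

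Inner starts led in some of the genes. In 4 of the 8 neuronal genes with 2 or more groups the strongest was not the first in either library, against 18.2% of protein-coding genes with 2 or more groups and a start peak in both libraries. These were Rbfox2 and Rbfox3, with 7 groups each, and Elavl2 and Elavl4, with 6 each. A gene with more groups has more inner ones that can lead, and the share over genes with as many groups was not computed. For Elavl2 the contrast was steep. The first group had 0.497 in replicate 1 and no listed peak in replicate 2, while the second, 24.3 kb into the gene, had 8.80 and 12.2. The third group, at 27.8 kb, where the microRNA gene Mir6402 also starts, had 2.82 and 2.85.

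Rbfox2 had a similar pair of leading starts. Its first group had 3.15 in replicate 1 and 3.47 in replicate 2, and the second, 61.4 kb in, had 3.26 and 5.38. The groups differed little in replicate 1 and by more in replicate 2. A further group at 153.2 kb had 1.61 and 2.36, and one at 103.6 kb, of a transcript that encodes no protein, had 0.658 and 0.608. The other 3 groups of Rbfox2 had no listed peak.

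Rbfox3 was open at 6 of its 7 groups. The first 3 of these, within 3.6 kb, had 1.17, 1.39 and 1.62 in replicate 1 and 1.60, 1.62 and 1.35 in replicate 2. The groups at 150.6 kb and 341.7 kb were weaker, between 0.799 and 0.958. The last, 404.2 kb in, had the highest values, 3.23 and 2.16, in a peak that ended 628 bp upstream of the annotated start. It led every other start of the gene in both libraries, by more in replicate 1.

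Rbfox1 spread its open starts over more than a megabase. The first group had 1.79 and 2.11, the second, at 463.8 kb, had 1.59 and 1.87, and the fifth, at 1308 kb, had 1.10 and 1.33. The fourth was listed in replicate 1 alone at 0.478 and the sixth in replicate 2 alone at 0.614. No peak was listed at the third or the seventh. In Elavl4 the fourth group, 64.4 kb in, had 1.75 and 2.06, against 1.59 and 1.36 at the first, and the third had 0.687 and 0.706.

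The remaining genes relied on 1 main start. Nova2 has a single start group. Nova1 had 0.279 and 0.319 at its second group, 2 kb into the gene, far below the first. Elavl3 was open at the first of 2 groups and Ptbp2 at the first of 5. Ptbp1 had 2.00 in replicate 1 and 2.41 in replicate 2 at its second group, and its first group also lies at the start of the gene E130317F20Rik, so the signal there cannot be told apart between the 2 genes.

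Strongest start peaks differed in position and base composition. Those of Elavl2, Elavl3, Elavl4, Rbfox2, Ptbp2 and Ptbp1 overlapped an annotated start. In Rbfox1, Nova2, Nova1 and Rbfox3 the peak ended 315, 428, 492 and 628 bp upstream of the nearest one. In the central 200 bp, Ptbp2 had 33 CpG dinucleotides, Elavl3 24, Nova1 19, Rbfox1 18, Ptbp1 16, Elavl2 14 and Nova2 11, against a median of 12 over start peaks of all protein-coding genes. Elavl4 with 5 and Rbfox2 and Rbfox3 with 2 each were nearer the median of 3 of peaks over 1000 bp from any start. Their strongest peaks were at inner starts, as was that of Elavl2 with its 14.

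The sequences above differ in what lies under footprints. In the Elavl3 start peak the word TATAAA lay 31 bp upstream of the annotated start, inside footprint bases of both libraries. The same word was present in 3.53% of start peaks in replicate 1 and 3.44% in replicate 2. The Nova1 peak had the most shared footprint sequence of the 4, 106 of 240 bp, followed by Nova2 with 74 of 200 bp. The whole Ptbp1 start peak is annotated exon sequence and is therefore not printed.

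Words were matched on either strand in 200 bp around each peak centre. The E-box CAGCTG was present in 14 of 60 start peaks of the 10 genes (23.3%) in replicate 1 and 14 of 56 (25%) in replicate 2, against 13.8% and 13.9% of all start peaks. CAGATG was present in 10 of 60 (16.7%) and 11 of 56 (19.6%), against 10.6% and 11.0%. Several of these peaks belong to the same gene, so the shares are descriptions. Away from starts, CAGCTG was in 19.7% and CAGATG in 24.6% of all peaks in replicate 1. Start peaks of the 10 genes had a median of 9 CpG in either library, against 12 over all start peaks, and the part of base composition was not tested. The GC box went the other way, in 5% and 7.1% of start peaks of the 10 genes against 10.3% and 10.4%. In replicate 1 the CRE word TGACGTCA was in 1.68% and the NRF1 word GCATGCGC in 2.62% of all start peaks. Neither was in any start peak of the 10 genes, but words this rare can be missing from 60 peaks, so no difference is read from it.

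Away from starts, intronic peaks were many in Rbfox1 and Rbfox3 and few in the shorter genes. Of the 282 peaks of the neuronal regions in replicate 1, 182 (64.5%) lay in introns of the gene itself, and of the 292 in replicate 2, 197 (67.5%) did. Most of these belonged to Rbfox1, with 105 and 113, and Rbfox3, with 44 and 50. Without Rbfox1 the share was 46.4% (77 of 166) and 49.7% (84 of 169). The intronic share over all peaks or over other genes was not computed, so these shares only describe the members. Elavl3 had 1 intronic peak in each library and Ptbp2 had none. Ptbp1, with 11 and 8 peaks, also had none in its introns, though its body is 10.3 kb long and a peak within 1000 bp of a start was counted there. Over the 10 genes, 60 peaks in replicate 1 and 56 in replicate 2 were at own starts, 13 and 11 at starts of other genes, 8 and 7 in own exons and 30 and 29 in flanks.

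**Figure D2:**
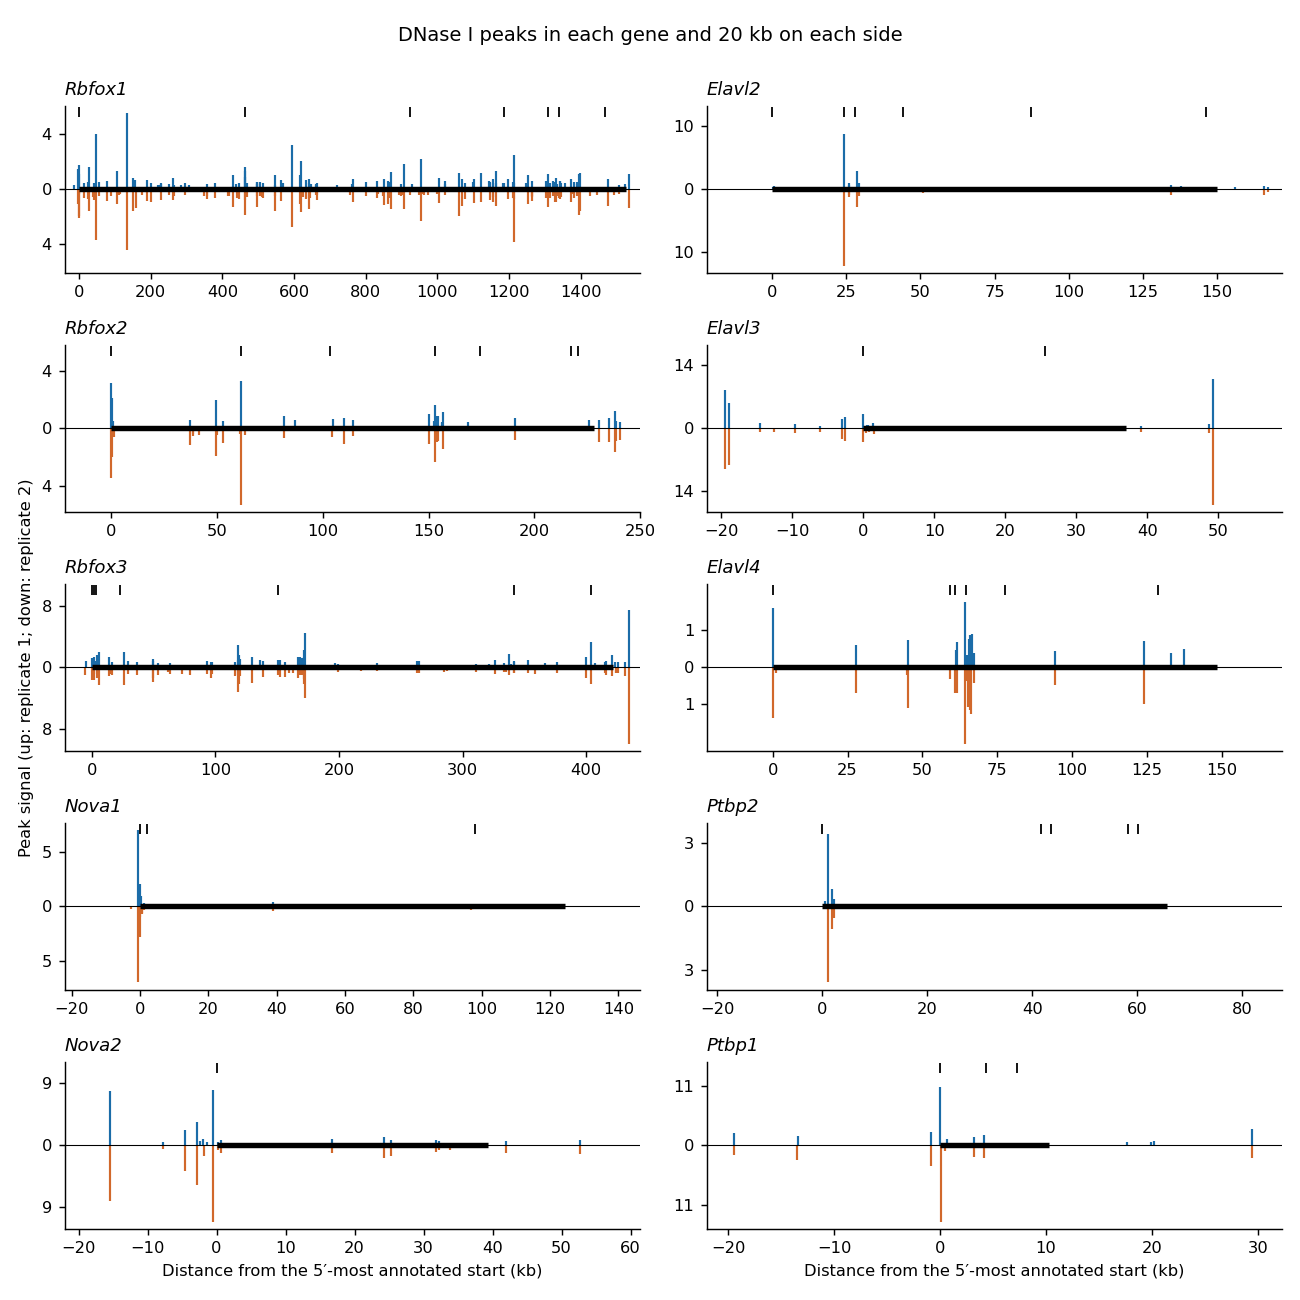
Peaks of replicate 1 (upward) and replicate 2 (downward) along each gene and its 20 kb flanks, by distance from the 5′-most annotated start in kb. Line height is peak signal, the thick bar is the gene body and ticks at the top are start groups. Scales differ between panels. Rbfox1 and Rbfox3 carry peaks along the whole body, whereas the 4 and 3 peaks of Ptbp2 all lie at its first start group, and the tallest flank peaks of Elavl3 and Rbfox3 are starts of neighbouring genes.

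Rbfox1 held the most peaks, 116 in replicate 1 and 123 in replicate 2, and they reached all of 10 equal parts of the body. Rbfox3 held 63 and 68, and 65.5% and 66.1% of those in the body were in its 5′ 50%. That share was not computed over all genes. Rbfox2 held 29 and 28, Nova2 17 and 16, Elavl2 16 and 12, Elavl4 15 and 16, Elavl3 14 and 15, Nova1 8 and 11, and Ptbp2 4 and 3. In Elavl4, 8 peaks of each library stood in the fifth of 10 equal parts of the body, around its leading start. All 3 body peaks of Elavl3 in each library were in the first of 10 equal parts. No peak of Ptbp2 was over 1000 bp from a start.

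Per 100 kb, the neuronal genes had a median of 8.24 peaks and Ptbp1 18.9, a ratio of 0.436. The body of Ptbp1 is 10.3 kb in a region of 50.3 kb, so most of its region is flank. In replicate 1, 2 of its peaks were at starts of other genes. By the means of the libraries, the short Nova2 (20.8) lay above Ptbp1 and the short Elavl3 (18.8) close to it. In replicate 1 Nova2 (21.4) and Elavl3 (18.2) lay below Ptbp1 (21.8), and in replicate 2 (20.1 and 19.5) above it (15.9). The order of these genes and Ptbp1 is therefore not resolved. All other neuronal genes lay below Ptbp1 in both libraries. The part of gene length in the ratio was not tested. This ratio moved from 0.240 without flanks to 0.583 with 50 kb flanks and was 0.731 for peaks over 1000 bp from any start, so its size depends on the window. All protein-coding genes had a median of 8.83, and those of at least 100 kb 7.14. Rbfox3 with 14.2 and Rbfox2 with 10.6 stood at percentiles 93.9 and 79.9 of the long genes, Elavl4 with 8.24 at 61.4, Rbfox1 with 7.63 at 55.0, Elavl2 with 7.37 at 52.6 and Nova1 with 5.78 at 36.2. Among all genes, the compact Nova2 with 20.8 stood at percentile 91.3, Elavl3 with 18.8 at 88.2 and Ptbp2 with 3.31 at 19.6.

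**Figure D3:**
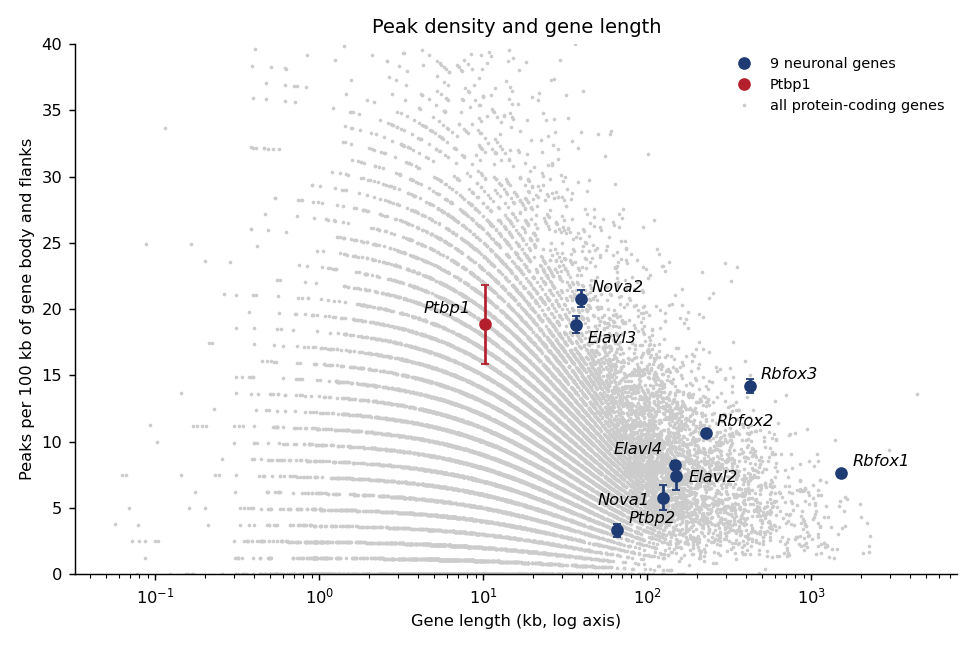
Peaks per 100 kb of gene body and 20 kb flanks against gene length (log axis) for all protein-coding genes (grey), the 9 neuronal genes and Ptbp1; points are means of the libraries and bars span both. The vertical axis ends at 40, and 130 of the 21938 genes lie above it. Rbfox3 (14.2) stands at percentile 93.9 of genes of at least 100 kb, and Ptbp2 (3.31) at percentile 19.6 of all genes.

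Peaks at starts of other genes are counted in some of these densities, each as 1 peak whatever its height. They were 4 of 14 peaks in replicate 1 and 4 of 15 in replicate 2 in Elavl3. In Nova2 they were 1 of 17 and 1 of 16, and in Rbfox3 4 of 63 and 3 of 68. Some of these peaks were tall. In the flanks of Elavl3, the start of Ccdc151 and Prkcsh had 11.0 in replicate 1 and 17.1 in replicate 2, and a peak at the start of Zfp653 had 8.46 and 9.13. The start of Ccdc61 beside Nova2 had 7.94 and 8.08, and that of Engase beside Rbfox3 had 7.51 in replicate 1 and more in replicate 2. The neighbours of Elavl3 and Rbfox3 stood above the own starts of these genes in both libraries.

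In Rbfox1 and Rbfox3 the strongest own site was an intronic one. The strongest peak over 1000 bp from any start had 5.58 in replicate 1 and 4.43 in replicate 2 in Rbfox1, 3.11 and 2.10 times its strongest start. In Rbfox3 it had 4.50 and 4.04, 1.39 and 1.87 times its strongest start. The other 7 neuronal genes and Ptbp1 had no such site above their starts in both libraries. Of protein-coding genes with a start peak in both libraries 23.1% had one, and of those of at least 100 kb 36.9%, beside 2 of the 6 neuronal genes of that length.

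**Figure D4:**
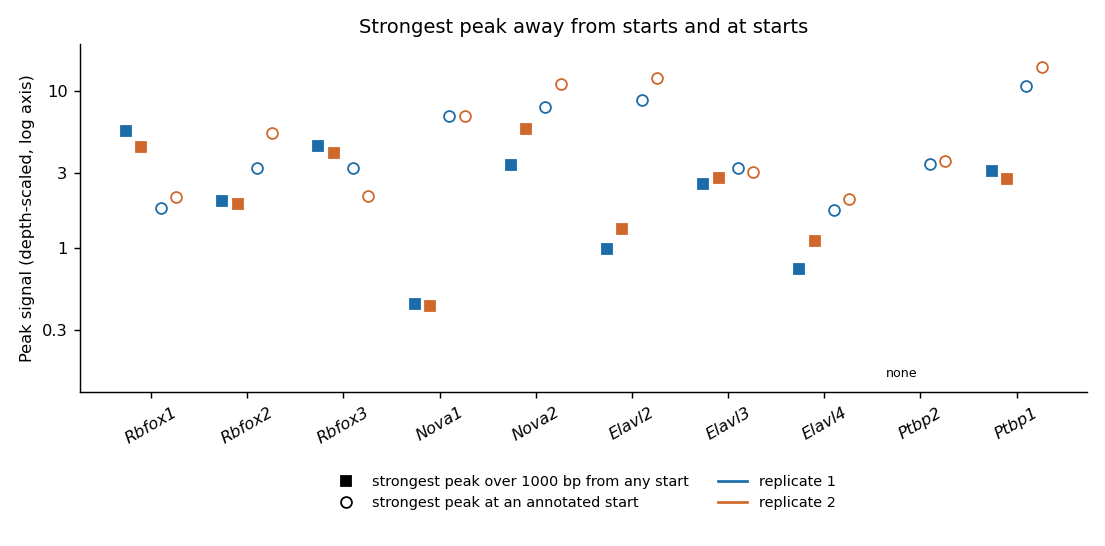
Strongest peak over 1000 bp from any annotated start (filled squares) and strongest peak at an own start (open circles) in each gene and its flanks, as peak signal on a log axis, coloured by library. Squares lie above circles in Rbfox1 and Rbfox3 in both libraries and below them in every other gene, and Ptbp2 has no peak away from its starts.

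The Rbfox1 site lay 133.5 kb into the gene at percentiles 99.5 and 99.0 of all peaks away from starts, whose median signals were 0.493 and 0.596. Its sequence, shown above, has 71 of 180 bp in footprints of both libraries. The next sites of Rbfox1 were at 46.6 kb (3.98 in replicate 1 and 3.70 in replicate 2) and at 1215 kb (2.47 and 3.85). The leading Rbfox3 site, 172.5 kb in, stood at percentiles 98.9 and 98.7. The second, at 117.9 kb, had 2.90 and 3.21.

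Upstream of Nova2 a cluster of open sites stood outside any annotated start, with 3.38 in replicate 1 and 5.74 in replicate 2 at 2.8 kb before the gene and 2.21 and 3.77 at 4.6 kb before it. Elavl3 had 2.54 and 2.81 at 2.5 kb before its start and 2.13 and 2.42 at 3 kb. These upstream sites stood between percentiles 93.2 and 99.6 of peaks away from starts. By mean signal, the best site of Rbfox2 was intronic at 49.4 kb (1.99 and 1.91), that of Elavl2 at 26 kb (0.734 and 1.31, with 0.990 and 0.921 at 25.7 kb), that of Elavl4 at 45.1 kb (0.734 and 1.11) and that of Nova1 at 38.8 kb (0.440 and 0.424). The Nova1 value was below the median of such peaks in both libraries, although its start was the third highest of the neuronal genes. In Ptbp1 the highest by mean was 29.4 kb from the start, in the downstream flank (3.10 and 2.42), while in replicate 2 a site at -13.4 kb, upstream of the gene, was higher (1.68 in replicate 1 and 2.76 in replicate 2).

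The CTCF word, for the zinc-finger protein that anchors chromatin loops, was counted only where every base matched its consensus. In that form it occurred only in Rbfox1 and Rbfox3 among the 10 genes. It was present in 9 of 220 member peaks away from starts in replicate 1 and 7 of 233 in replicate 2, against 5.20% and 4.69% of all such peaks, and in none at starts. The 7 sites found in both libraries were 4 in Rbfox1, at 46.6, 595.2, 618.4 and 906.5 kb, and 3 in Rbfox3, at 171.4, 172.5 and 337.9 kb. In each of them the word touched footprints of both libraries, by at least 1 base. The words in peaks of replicate 1 alone, at 570.2 kb in Rbfox1 and 135.6 kb in Rbfox3, touched footprints of that library only. The share of all CTCF-word sites that touch footprints was not computed. In the Rbfox3 sequence printed above the word lies wholly within capitals. Near matches were not counted. Such near matches lie in footprint bases of both libraries at the strongest sites, by mean, away from starts in Rbfox1, Rbfox2 and Ptbp1. Another lies at the strongest start of Rbfox3. A gene or site without the full word may therefore still hold a similar sequence. An RE1 word, the target of the neuronal gene repressor REST, was in 1 Rbfox3 intronic peak at 326.6 kb (0.961 and 0.835). That is 1 of 220 and 1 of 233 member peaks away from starts, against 0.101% and 0.0756% of all such peaks. The RE1 word touched a footprint in replicate 2 alone, and no difference is read from 1 match.

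These CTCF-word sites also moved apart from the rest between libraries. All 7 were lower in replicate 2, with a median log2 ratio of replicate 2 to replicate 1 of -0.30, while 38 of 165 other shared member sites away from starts (23.0%) were lower and their median was 0.35. Over all genes the same split was present: 78.0% of 5266 shared sites with the word were lower in replicate 2 (median -0.25), against 25.4% of 79371 sites without it (median 0.31). The CTCF-word sites of the members were also stronger, with a median signal of 2.22 in replicate 1 against 0.715 for the other member sites, and the part of peak height in the difference was not tested. Sites with a near match count among those without the word. The near-match sites named above in Rbfox1, Rbfox2 and Ptbp1 had log2 ratios of -0.33, -0.06 and -0.36. The near match of Rbfox3 lies at a start, outside this comparison, in a peak with a log2 ratio of -0.59. Near matches were not searched for at the remaining sites, so the split separates full matches from all else.

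Between the libraries, peaks of the 10 genes recurred as often as peaks in general. In replicate 1, 79.5% overlapped a peak of replicate 2 (exact binomial 95% interval 74.4 to 84.0), against 78.7% of all peaks. In replicate 2, 77.7% overlapped one of replicate 1 (72.5 to 82.3), against 76.3%. The intervals cover counting error only. Among the neuronal genes 225 of 282 and 225 of 292 peaks were shared, and of Ptbp1 8 of 11 and 8 of 8.

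Signals were higher in replicate 2 across most shared sites, 84994 of 118593 in all. The median log2 ratio of replicate 2 to replicate 1 was 0.32 over 225 sites of the neuronal genes, 0.34 over 8 of Ptbp1 and 0.25 over 118593 sites in all, whose SD was 0.43. Nova2 was higher in replicate 2 at 14 of 15 sites (median 0.52) and Nova1 at 3 of 6 (median 0.01). The strongest start of Rbfox3 went the other way, with a log2 ratio of -0.59, and that of Rbfox2 was at 0.72.

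**Figure D5:**
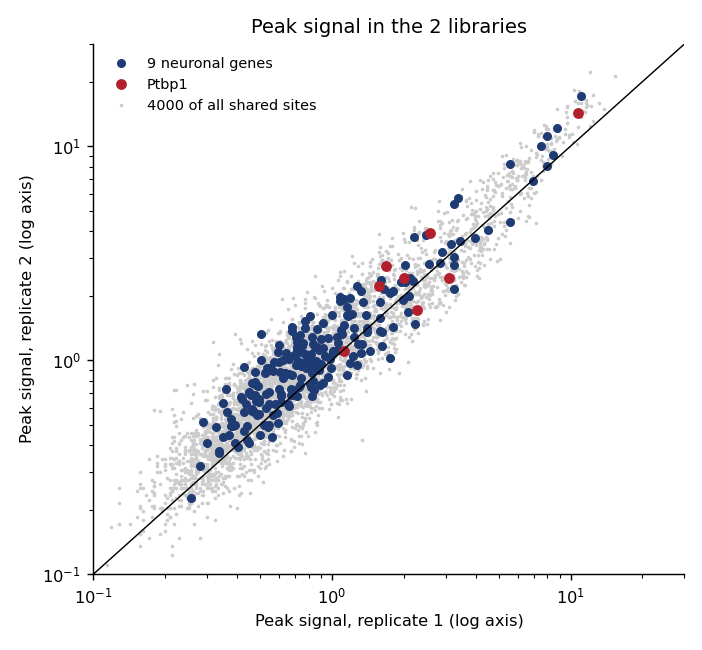
Peak signal in replicate 2 against replicate 1 at sites shared by both libraries (log axes) for the 9 neuronal genes, Ptbp1 and a sample of 4000 of all shared sites in grey. The line marks equal signal. Most sites of the neuronal genes, 173 of 225, lie above it. Of all 118593 shared sites, 84994 were higher in replicate 2.

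Footprints followed the peaks. The neuronal regions held 714 in replicate 1 and 739 in replicate 2, from 257 and 268 in Rbfox1 and 149 and 155 in Rbfox3 to 21 and 21 in Nova1 and 10 and 14 in Ptbp2. Per 100 kb the neuronal median was 20.2 and 25.0, against 77.5 and 65.5 in Ptbp1. Of the neuronal genes, the short Elavl3 lay above Ptbp1 at 83.1 and 88.3. Nova2, also short, had 75.5 and 76.8, and all others lay below Ptbp1. Per peak the gap was smaller, with medians of 2.32 and 2.50 footprints in peaks of the neuronal genes and 3.00 and 3.13 in those of Ptbp1. Of the peaks of the 10 genes 86.7% and 88.0% held a footprint, against 83.7% and 83.2% of all peaks.

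Other splicing regulators were read in the same way. Of 8 further brain regulators all were open in both libraries, with a median start signal of 5.30, led by Celf3 (8.09 ± 2.26), Celf5 (7.21 ± 2.18) and Celf6 (5.41 ± 1.27), which bind GU-rich RNA. All 33 broadly expressed regulators were open, with a median of 8.59, led by Hnrnpc (20.3 ± 3.04), Srsf3 (14.4 ± 3.15) and Sf1 (13.5 ± 4.27), general factors of pre-mRNA processing. The median of the 9 neuronal genes, 3.52, lay below both, and Ptbp1 lay above both. Of 5 regulators of epithelium and muscle 3 were open, Rbm38 (5.52 ± 0.427), Rbm24 (0.776 ± 0.0322) and Rbm20 (0.717 ± 0.0239), and the epithelial Esrp1 and Esrp2 had no start peak in either library. Among these groups the share of open start groups was 54.5% for the 9 neuronal genes, 66.7% for the brain regulators, 36.8% for the broad ones and 35.7% for those of epithelium and muscle.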

How the data were processed

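Open chromatin of left cerebral cortex was analysed in 2 libraries, grouped by their labels. Each peak carries a signal that the authors scaled to sequencing depth; the larger of the 2 deposited peak lists of a library was used and the smaller one as an alternative. In the deposited interval files a false discovery rate (q-value) stands beside each interval, and none above 0.05 is listed. The deposited score of each footprint was the same throughout and was not used. Aligner and callers: not given in the sources used here. The build is mm10 per the labels.

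Peaks belonged to a region by their centre, a start had a peak where a peak lay within 1000 bp, and libraries were compared by an overlap of at least 1 bp. Starts came from GENCODE M21 and sequence from RefSeq's GRCm38.p6. Words were matched on either strand in 200 bp windows: those spelled out with their values, and CTCF, RE1, AP-1, Egr, Mef2, NFI, GC box, ETS, YY1, NFY, RFX and octamer consensus words. No test was run, since there is 1 group. The code for the window rule was checked on simulated peaks at 400 start groups of protein-coding genes, each a single isolated start. Of these peaks, 200 of 200 inside the window and 0 of 200 outside it were called. This follows from the rule when the code works, and it does not cover clustered starts or peaks missing from the lists.

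The members, lists and words were chosen with earlier results of these data known. All 10 members, every start group and the strongest site away from starts were named, with the 3 highest genes of each further list and those with no start peak. Further sites and neighbouring genes, and the comparison of libraries at CTCF-word sites, were chosen after their values were seen. Alternatives were the window, the flank, the peak list and height, the transcript types, the overlap, the scaling and either library by itself. Software was Python 3.11.15, SciPy 1.17.1, NumPy 2.4.6, pandas 2.3.3 and pysam 0.24.0.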

Additional observations from a re-analysis of the deposited data

How the results depend on the processing

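All 10 members kept a start peak in both libraries with windows of 500 and 2500 bp, the stricter peak list, protein-coding transcripts alone and each library alone. Open start groups of the 9 neuronal genes numbered 20 to 26 under these settings, against 24. Their median start signal over that of Ptbp1 was 0.281 and ranged from 0.250, without Rbfox2 and Ptbp2, to 0.302, in replicate 1 alone, with 0.253 in replicate 2 alone and 0.284 after scaling to each library's median peak. Peak density was the value that depended most on the processing: the ratio to Ptbp1 of 0.436 was 0.240 without flanks, 0.583 with 50 kb flanks, 0.318 with the stricter list and 0.731 for peaks over 1000 bp from any start, and 0.385 to 0.535 with either library alone. It stayed below 1 in each of these. The 287 peaks of the neuronal regions (mean of the libraries; 282 to 292 with either library alone) became 152 with the stricter list and 183.5 among the stronger 50% of peaks. Their footprints numbered 574.5 to 873 over the flanks tried. The shared share of 78.6% was 73.2% when 50% of the peak had to overlap and 83.2% with the stricter list. No paired analysis was possible because there is 1 group. Sequencing depth is unknown, so a missing peak is a site not listed, not a closed one.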
